A study of Mus musculus with 12 samples.

Results

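The transcription factor p53, encoded in the mouse by Trp53, and 9 genes of its network were followed in newly made and total RNA of mouse embryonic stem cells (mESCs). The 10 genes were given by name, with no threshold on their values: Trp53, Mdm2, Mdm4, Cdkn1a, Ccng1, Trp53inp1, Bbc3, Bax, Phlda3 and Zmat3. They are 10 of the 34079 genes with an exonic row, and 35 of the 121429 transcripts were assigned to them by the GENCODE M1 annotation. A further 3 of their 38 transcripts in the GENCODE M1 annotation, 1 each of Bax, Mdm4 and Trp53, were not analysed here.

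The cells were of the XY mESC line DTCM23/49, grown on gelatin in medium with serum and leukemia inhibitory factor. All groups received 4-thiouridine (4sU), a uridine analog that enters RNA while it is being made, at 200 µM for 15, 30 or 60 min. RNA carrying 4sU was biotinylated and pulled down on streptavidin beads (labeled RNA), and was sequenced beside RNA that had not been selected (total RNA). Each of the 6 groups had 2 libraries, 1 from each of 2 biological replicates, which gives 6 labeled and 6 total RNA libraries. Both replicates came from 1 culture of 1 line that was divided in 2 and passaged 8 times, and each SD over the 6 libraries of a fraction spans these cultures and the 3 labeling times. The main tests treated the libraries as independent. Their standard errors (SE), intervals and p-values therefore measure spread among libraries of 2 cultures, not among 6 independent biological replicates. No RNA from cells without 4sU was analysed here, and the background of the pull-down was therefore not measured. No group received a p53-activating drug or had p53 removed. In bulk RNA, fewer cells expressing a gene and less RNA of it per cell cannot be told apart.

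p53 binds pairs of a short DNA motif, the decamer, and activates genes that stop the cell cycle, repair DNA or start apoptosis. Mdm2, itself a p53 target, ubiquitinates p53 and sends it to the proteasome, and its relative Mdm4 binds p53 and blocks its activity, so that the pathway is held in a negative feedback loop. Embryonic stem cells are known for abundant p53 and for a short G1 phase with little of the cell cycle inhibitor p21, the product of Cdkn1a.

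The decamer recognized by p53 was looked for in the RefSeq promoters of these genes (build GRCm38.p6), to show the letters of the motif where it occurs near their start sites. RefSeq promoters, which run from 250 bases before to 50 bases after a start site, were found for 8 of the 10 genes, as 12 promoters. At least 1 match to the p53 decamer was found in 5 of the 12 promoters (41.7%), against 2745 of all 32851 promoters (8.36%). The decamer reads the same on both strands, and a match describes the letters only. The genes had been named for their tie to p53, and Bbc3, Cdkn1a and Mdm4 entered with several promoters each. Sites outside these promoters were not searched for, so a gene without a match here may have them elsewhere. The matches, in capitals within 30 bases, were:
Bax, chr7:45467080-45467109, minus strand: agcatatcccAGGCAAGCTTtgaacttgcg
Mdm2, chr10:117710925-117710954, minus strand: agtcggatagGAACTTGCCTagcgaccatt
Ccng1, chr11:40755452-40755481, minus strand: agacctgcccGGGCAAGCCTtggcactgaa
Trp53, chr11:69580274-69580303, plus strand: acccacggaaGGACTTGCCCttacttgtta
Cdkn1a, chr17:29090896-29090925, plus strand: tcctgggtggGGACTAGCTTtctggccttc
Cdkn1a, chr17:29090918-29090947, plus strand: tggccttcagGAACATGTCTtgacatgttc
The matches of Mdm2, Ccng1 and Bax lay 186, 185 and 201 bases before the start site, counted to their first base, and that of Trp53 lay 75 bases before it. The matches of Cdkn1a lay 73 and 51 bases before its start site, and Cdkn1a was the 1 gene of the 8 searched with a pair of decamers at most 13 bases apart, which 24 of all promoters (0.0731%) had.

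The deposited values are abundances normalized for length, given separately for the exons and the introns of each transcript. The values of every library sum to between 19988830 and 19992902 units, so each value is a share of its library, and a difference between labeled and total RNA is a difference in share and not in amount per cell. Values of 1 or less are missing and were taken as 0. The depth of single libraries cannot be read from these values, and no counting error can be given. The summed level was higher for genes with more isoforms: the median of the summed exonic level was 103 units for genes with 1 isoform and 429 units for genes with 7, while the median of the highest isoform was 103 and 105 units. The sum over isoforms was therefore used only to compare 1 gene between libraries, and genes were compared with each other by their leading transcript, the isoform with the highest mean exonic level.

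The libraries differed in a property that bears on all results. In the 6 labeled libraries the introns of all transcripts took up 10.5 ± 3.30% (SD) of the summed values, and in the 6 total RNA libraries 7.07 ± 0.379% (SD). Among the labeled libraries, the intronic share was 14.8% and 13.9% in replicate 1 at 15 and 60 min, 9.35% and 10.8% in replicates 1 and 2 at 30 min, and 7.24% and 6.99% in replicate 2 at 15 and 60 min. The last 2 lay within the range of total RNA, 6.53% to 7.41%. They are called the low-intron labeled libraries below, and results are also given without them, an alternative chosen after the values were seen. Their exonic levels stood nearer to labeled RNA. Of 2686 genes whose exonic levels did not overlap between the other 4 labeled and the 6 total RNA libraries, the low-intron libraries at 15 and 60 min lay nearer to the labeled mean in 58.9% and 69.0%. Placed in the same way, each total RNA library did so in 7.80% to 23.9% and each other labeled library in 75.7% to 91.7% of the genes that separated the rest. Whether newly made RNA was enriched less in these 2 libraries was not tested, and every difference between labeled and total RNA includes them unless stated otherwise. Since they were set apart by their introns, intronic calls and calls of ratios without them are not independent of that choice.

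The libraries carried the marks of the labeled cell type. All 10 pluripotent cell markers had a mean exonic level of at least 20 units in their leading transcript. Tdgf1 had the highest, at 5419 units, and their summed level was 9943 to 14143 units in labeled and 12719 to 16770 units in total RNA. Of 7 fibroblast markers, Thy1 alone reached 20 units (33.7 units), and Col3a1, Dcn and Lum were missing in all 12 libraries. The summed level of the fibroblast markers was 23.9 to 42.4 units in labeled and 31.0 to 55.8 units in total RNA. In their leading transcript, none of 9 markers of differentiated lineages had a mean of 20 units over the 12 libraries. Pax6 had the highest such mean, 4.82 units, with 23.6 units in labeled 60 min replicate 2 and at most 8.48 units in the others. Summed over its isoforms, Pax6 did reach a mean of 20 units. Mesp1, Cdx2 and Afp were missing throughout. Over the leading transcripts of the 9 markers, the summed level was 2.65 to 31.8 units in labeled and 3.23 to 20.2 units in total RNA.

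In total RNA, Trp53 was the most abundant gene of the network and the pro-apoptotic Bbc3 the least. The leading transcript of Trp53 had an exonic level of 2324 ± 168 units (SD, n = 6), above 94.3% of 12632 genes passing the filter. Ccng1, which encodes cyclin G1, a partner of protein phosphatase 2A and a classical p53 target, followed at 1497 ± 110 units (percentile 92.2). Both inhibitors of p53 came next, Mdm4 at 679 ± 94.4 units (percentile 86.0) and Mdm2 at 559 ± 102 units (percentile 83.7). The ranges of Mdm4 and Mdm2 overlapped.

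Zmat3, which encodes an RNA-binding zinc finger protein that acts in p53-dependent tumor suppression, stood at 304 ± 30.3 units. Cdkn1a stood at 274 ± 44.0 units and Trp53inp1, a stress protein that modulates p53 and takes part in autophagy, at 263 ± 28.7 units. The range of Cdkn1a overlapped those of Zmat3 and Trp53inp1, and these genes lay at percentiles 74.0, 72.0 and 71.2. Bax, which permeabilizes the outer mitochondrial membrane, had 146 ± 21.2 units (percentile 57.8). Phlda3, which encodes an inhibitor of Akt at the membrane, had 19.2 ± 3.73 units (percentile 3.40), and Bbc3, which encodes the BH3-only protein Puma, had 8.10 ± 2.13 units, below the filter. Apart from the neighbors named, no ranges of adjacent genes in this order overlapped.

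The first comparison asked which exonic levels differed between newly made and total RNA. The exonic level of Trp53 and of Zmat3 was lower in labeled RNA, Cdkn1a had the largest positive difference without passing the test, and none of the network passed it as higher. Of 13977 genes tested with limma at a Benjamini-Hochberg adjusted p under 0.05, 16.8% were called, 5.28% as higher and 11.6% as lower in labeled RNA. Of the 10 genes, 9 passed the filter of a mean of 20 units, Bbc3 being below it, and 2 of the 9 were called, both lower. Their median log2 difference was -0.11, beside -0.05 over all genes tested.

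Trp53 (chromosome 11, 69580348 to 69591873, plus strand) encodes p53 itself. Its summed exonic level in labeled RNA was 5324 and 7320 units at 15 min (replicates 1 and 2), 5990 and 5606 units at 30 min, and 5449 and 4602 units at 60 min. In total RNA it was 9847 and 7261 units at 15 min, 9491 and 9203 units at 30 min, and 7419 and 9404 units at 60 min. The groups met at a single point, the labeled library of replicate 2 at 15 min, which had a low intronic share and lay just above the lowest total RNA library. The log2 difference was -0.62 (SE 0.12), which is 0.650 of the level in total RNA, with an adjusted p of 0.00628 (limma, Benjamini-Hochberg). The call held in all 18 alternatives, with differences between -0.70 and -0.56 and adjusted p-values between 0.00145 and 0.0369 (limma, Benjamini-Hochberg). In the leading transcript, Trp53-001, the groups did not overlap, at 1440 ± 181 units in labeled and 2324 ± 168 units in total RNA (SD, n = 6 each), and labeled RNA was lower without overlap in 7.61% of transcripts tested.

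Zmat3 (chromosome 3, 32334792 to 32365665, minus strand) had summed exonic levels of 489 and 527, 511 and 551, and 430 and 482 units in labeled RNA at 15, 30 and 60 min. In total RNA the levels were 682 and 585, 635 and 655, and 553 and 566 units. Every labeled library lay below every total RNA library, which 7.28% of genes tested showed. Zmat3 thus differed by -0.30 on the log2 scale (SE 0.087) with an adjusted p of 0.0378 (limma, Benjamini-Hochberg). The call was close to the threshold. With the replicate block, which pairs labeled and total libraries of equal time and number, the adjusted p was 0.108 (limma, Benjamini-Hochberg). The labels do not state this pairing. With the leading transcript the adjusted p was 0.131 and with median-of-ratios scaling 0.0899 (limma, Benjamini-Hochberg). Leaving out any 1 of 8 libraries gave 0.0550 to 0.0961 (limma, Benjamini-Hochberg). Those libraries were labeled 15 min replicate 1, both labeled 30 min libraries, total 15 min replicate 1, and both total RNA libraries at 30 and at 60 min.

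Cdkn1a (chromosome 17, 29090979 to 29100722, plus strand) encodes the cyclin-dependent kinase inhibitor p21. Its summed exonic level in labeled RNA was 571 and 1697 units at 15 min, 1108 and 1100 units at 30 min, and 573 and 1341 units at 60 min. In total RNA it was 568 and 547, 603 and 836, and 584 and 713 units. The labeled libraries thus spread over a wide range, with both of replicate 1 at 15 and 60 min at the level of total RNA and the other 4 above every total RNA library. For Cdkn1a the log2 difference was 0.63 (SE 0.26), or 1.55-fold, with an adjusted p of 0.120 (limma, Benjamini-Hochberg), and its 95% interval ran from 0.06 to 1.21. It was called without labeled 60 min replicate 1, at 0.81 and an adjusted p of 0.0401 (limma, Benjamini-Hochberg), and fell to 0.23 (adjusted p = 0.324, limma, Benjamini-Hochberg) without the low-intron labeled libraries.

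**Figure D1:**
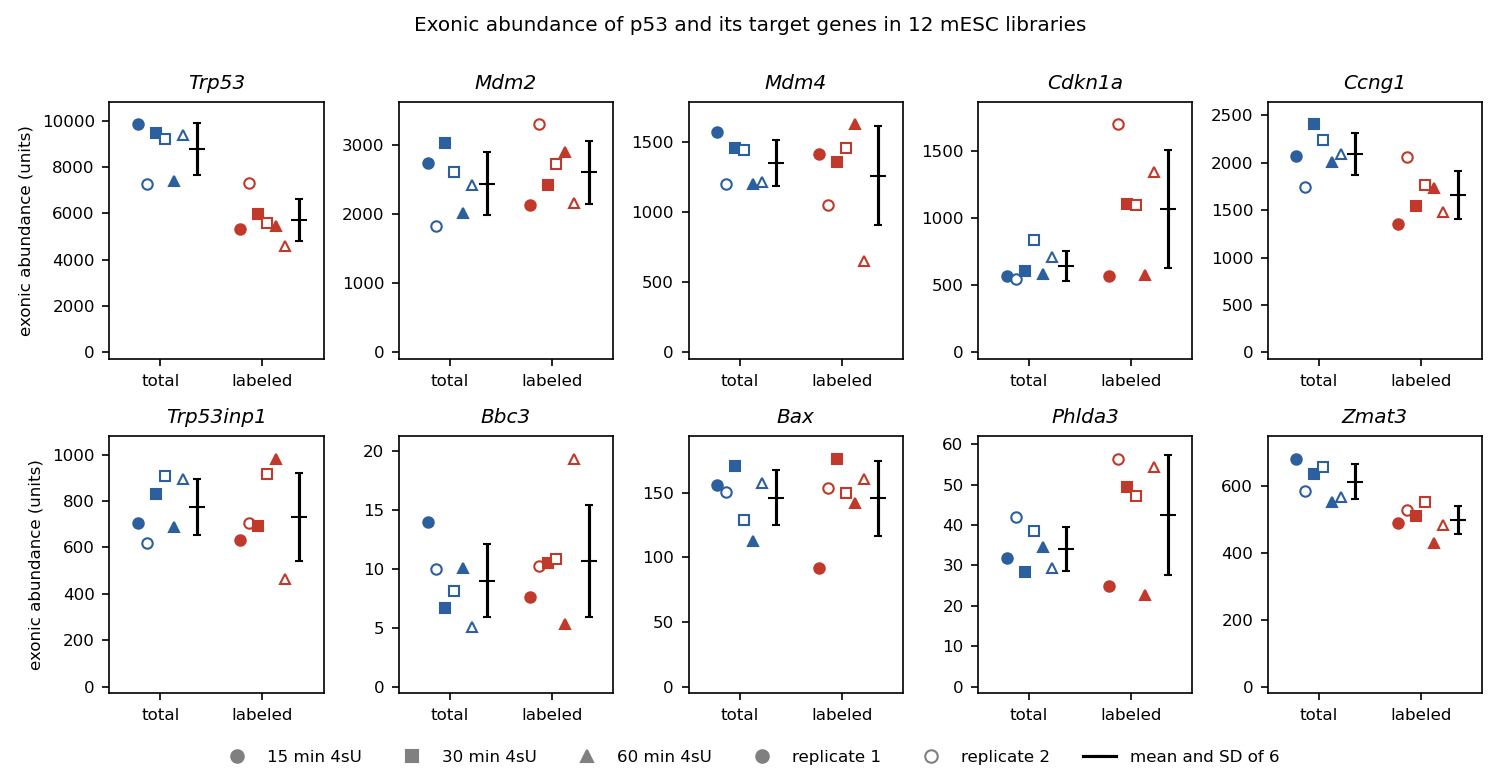
Summed exonic abundance (vertical axis, units of the deposited table) of each gene in total (blue) and labeled (red) RNA; symbols give the labeling time, filled symbols replicate 1 and open symbols replicate 2, and black bars the mean and SD of 6 libraries. Trp53 and Zmat3 lay lower in labeled RNA, and the labeled libraries of Cdkn1a ran from 571 to 1697 units against 547 to 836 units in total RNA.

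The other genes did not pass the test on exonic levels. Ccng1 (chromosome 11, 40748552 to 40755309, minus strand) had 1360 and 2066, 1547 and 1766, and 1734 and 1478 units in labeled RNA at 15, 30 and 60 min. In total RNA it had 2068 and 1745, 2406 and 2237, and 2008 and 2096 units. The groups overlapped, as labeled 15 min replicate 2 and labeled 30 min replicate 2 lay above the lowest total RNA library. Ccng1 had a log2 difference of -0.34 (SE 0.12) with an adjusted p of 0.0695 (limma, Benjamini-Hochberg). It was called without labeled 15 min replicate 2 (-0.44, adjusted p = 0.00938), without both low-intron labeled libraries (-0.42, adjusted p = 0.0122), with the leading transcript (-0.44, adjusted p = 0.0142) and with median-of-ratios scaling (-0.29, adjusted p = 0.0385; limma, Benjamini-Hochberg).

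Mdm2 (chromosome 10, 117688875 to 117710758, minus strand) had a log2 difference of 0.10, with a 95% interval from -0.23 to 0.43. Its labeled libraries ran from 2134 to 3304 units with a median of 2576, and its total RNA libraries from 1834 to 3039 units with a median of 2519. Mdm4 (chromosome 1, 132986105 to 133030587, minus strand) had a difference of -0.15, with an interval from -0.56 to 0.27. Its lowest labeled libraries, 650 and 1053 units, were both of low intronic share, and the other 4 lay between 1360 and 1626 units, beside 1197 to 1575 units in total RNA.

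Bax (chromosome 7, 45461695 to 45466903, minus strand) had a log2 difference of -0.02 (interval -0.38 to 0.34), with 91.5 to 177 units in labeled and 113 to 171 units in total RNA. Trp53inp1 (chromosome 4, 11156441 to 11174379, plus strand) had a difference of -0.11 (interval -0.48 to 0.26), with 465 to 982 units and 618 to 907 units. The groups overlapped in both genes. Phlda3 (chromosome 1, 135766085 to 135769134, plus strand) had a difference of 0.23 (interval -0.33 to 0.80), with 22.6 to 56.5 units and 28.3 to 42.0 units. Bbc3 (chromosome 7, 16308398 to 16318334, plus strand), below the filter, had 5.30 to 19.3 units in labeled and 5.05 to 13.9 units in total RNA. These genes overlapped between the fractions as well.

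Exonic levels of Cdkn1a and Phlda3 in labeled RNA were highest in the libraries of lowest intronic share and lowest in those of highest intronic share, a pattern noticed once the values had been seen. With the labeled libraries taken 2 at a time from the lowest to the highest intronic share, 3.68% of genes tested had levels in this order without overlap and 4.9% in the opposite one. Ordered from the lowest to the highest intronic share (6.99%, 7.24%, 9.35%, 10.8%, 13.9% and 14.8%), the labeled libraries had 1341, 1697, 1108, 1100, 573 and 571 units of Cdkn1a. In the same order they had 54.3, 56.5, 49.3, 47.1, 22.6 and 24.8 units of Phlda3. Bbc3, below the filter, had 19.3, 10.2, 10.5, 10.9, 5.30 and 7.57 units, the lowest again in the libraries of highest share. Mdm4 had 650, 1053, 1360, 1458, 1626 and 1412 units, the low-intron libraries lying lowest, and Trp53 had 4602, 7320, 5990, 5606, 5449 and 5324 units, without such an order. The part of the intronic share in these differences was not tested. The mean of Cdkn1a in the 2 low-intron labeled libraries was 1519 units, beside 838 units in the other 4.

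**Figure D2:**
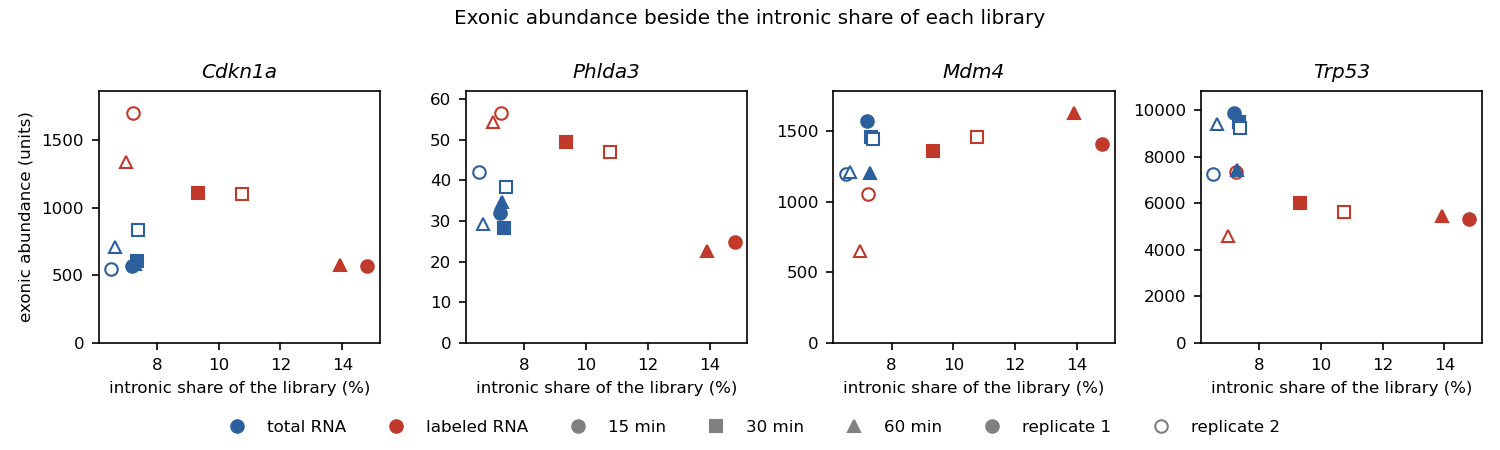
Summed exonic abundance of 4 genes (vertical axes, units, starting at 0) against the percentage of the library's signal held by introns (horizontal axes), 1 point per library, with colors for the RNA fraction, shapes for the labeling time and filled or open symbols for replicates 1 and 2. The labeled libraries of Cdkn1a and Phlda3 lay highest at the left and lowest at the right, those of Mdm4 lay lowest at the left, and the total RNA libraries lay between 6.53% and 7.41%.

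Intronic levels were compared next, since introns are present in RNA that has not yet been spliced. Intronic levels of Cdkn1a, Bbc3, Bax, Trp53 and Trp53inp1 were about 1.90-fold to 2.41-fold higher in labeled RNA, while those of Mdm2, Mdm4, Zmat3 and Ccng1 did not pass the test. Under median-of-ratios scaling, described below, Bbc3 alone of these kept its call as higher. Of 12249 genes tested with limma, 31.4% were called, 31.2% as higher and 0.245% as lower, with a median log2 difference of 0.65. Of the 10 genes, 9 passed the filter of a mean of 10 units, Phlda3 being below it, and 5 of the 9 were called as higher and 0 as lower. Bax passed the filter only through labeled RNA, since its mean in total RNA was 9.40 units, and its entry into the test therefore favored a difference. All 9 had a positive difference, as had 94.7% of all genes tested.

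In labeled RNA, Trp53 had summed intronic levels of 1959 and 617 units at 15 min, 1254 and 1161 units at 30 min, and 1030 and 991 units at 60 min. In total RNA it had 556 and 591, 499 and 548, and 682 and 459 units. The groups overlapped only through labeled 15 min replicate 2. The log2 difference was 1.00 (SE 0.26), or 2.00-fold, with an adjusted p of 0.0107 (limma, Benjamini-Hochberg), in a gene whose exonic level was lower in the same libraries.

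Cdkn1a had summed intronic levels of 200 and 118, 147 and 237, and 279 and 52.2 units in labeled RNA at 15, 30 and 60 min. In total RNA the levels were 45.6 and 80.4, 62.9 and 72.7, and 41.5 and 84.2 units. All labeled libraries but the one of replicate 2 at 60 min lay above all total RNA libraries. Introns of Cdkn1a differed by 1.27 (log2, SE 0.38), or 2.41-fold, with an adjusted p of 0.0206 (limma, Benjamini-Hochberg). Leaving out labeled 30 min replicate 2, total 15 min replicate 1 or total 60 min replicate 1 raised the adjusted p to 0.0521 to 0.0600 (limma, Benjamini-Hochberg). Median-of-ratios scaling gave a difference of 0.61 with an adjusted p of 0.134 (limma, Benjamini-Hochberg).

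Both apoptosis genes separated the fractions. Bbc3 had 48.1 and 19.4, 21.4 and 29.9, and 40.5 and 23.5 units in labeled RNA at 15, 30 and 60 min, against 9.61 to 14.8 units in total RNA. Bax had 33.9 and 17.6, 21.2 and 21.4, and 18.0 and 14.9 units in labeled RNA, against 7.03 to 11.6 units in total RNA. In both, every labeled library lay above every total RNA library, as in 16.7% of genes tested. Their log2 differences were 1.12 for Bbc3 (SE 0.28, adjusted p = 0.00864) and 1.07 for Bax (SE 0.27, adjusted p = 0.00995; limma, Benjamini-Hochberg). With no filter the adjusted p of Bax was 0.0128 (limma, Benjamini-Hochberg). In total RNA the introns of Bbc3 held 59.7 ± 7.33% of its summed level and 38.0 ± 7.40% of the level of its leading transcript (SD, n = 6), so this share depended on the isoforms read.

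Trp53inp1 had 740 and 329, 475 and 766, and 975 and 292 units in labeled RNA, and 277 and 200, 310 and 406, and 232 and 328 units in total RNA. Its groups overlapped through both low-intron labeled libraries. The log2 difference was 0.93 (SE 0.31) with an adjusted p of 0.0364 (limma, Benjamini-Hochberg), which leaving out any 1 of 9 libraries raised to between 0.0520 and 0.0937 (limma, Benjamini-Hochberg). The 3 libraries whose loss left the call in place were labeled 15 min replicate 2, labeled 30 min replicate 1 and labeled 60 min replicate 2.

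**Figure D3:**
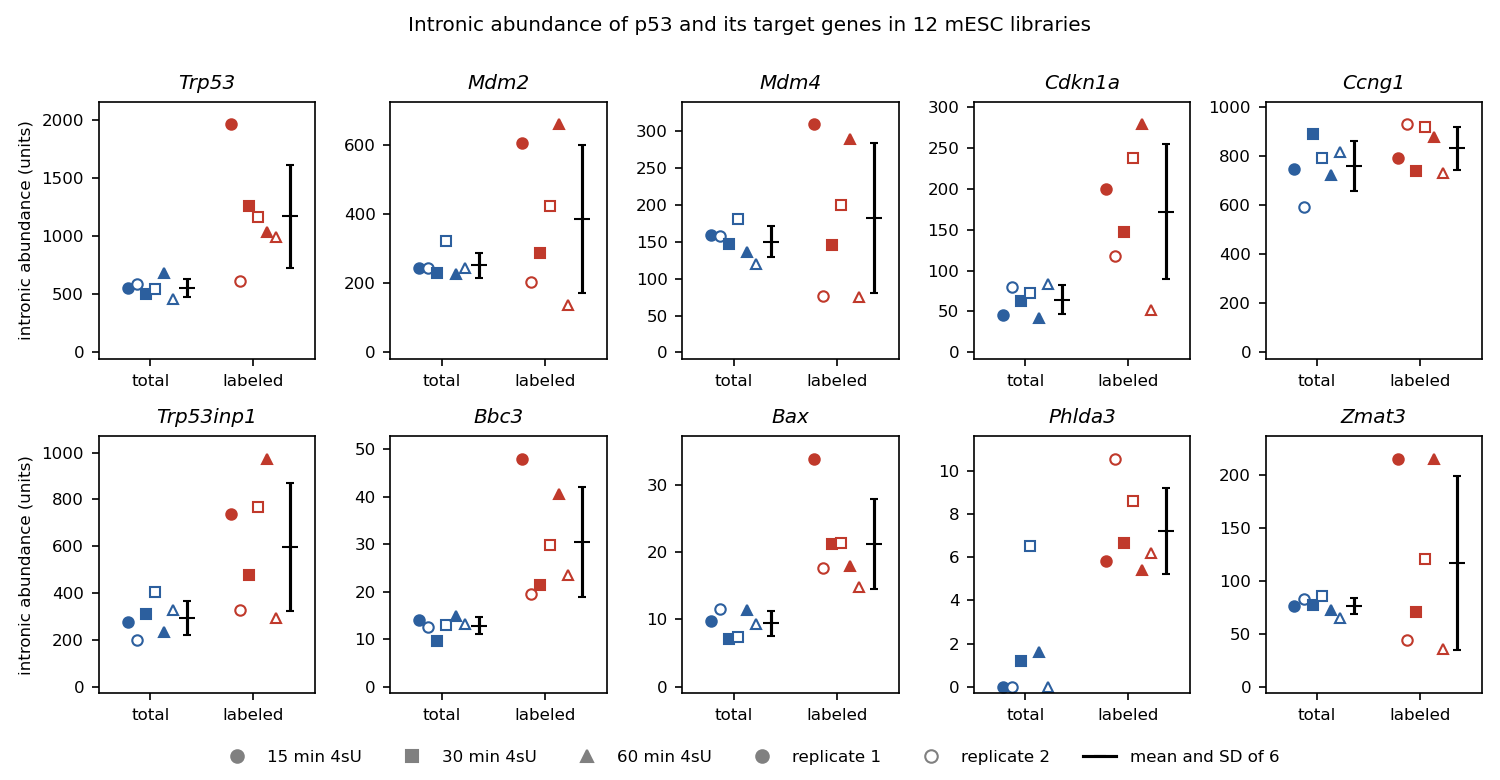
Summed intronic abundance (vertical axes, units) of each gene in total (blue) and labeled (red) RNA, with symbols for labeling time, filled or open for replicates 1 and 2, and black bars for the mean and SD of 6 libraries, left out for Phlda3 in total RNA, where 3 libraries had no value. The groups of Bbc3 and Bax did not overlap, and the open symbols at 15 and 60 min, the low-intron libraries, were the lowest labeled points of Trp53, Mdm2, Mdm4, Cdkn1a, Trp53inp1, Bax and Zmat3.

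In the intronic levels of Mdm2, Mdm4 and Zmat3, the labeled libraries reached both below and above the range of total RNA. Mdm2 had 608 and 204, 287 and 425, and 661 and 139 units in labeled RNA, beside 226 to 322 units in total RNA. Mdm4 had 310 and 76.4, 146 and 201, and 290 and 75.6 units, beside 120 to 181 units. Zmat3 had 215 and 43.9, 70.4 and 121, and 214 and 35.1 units, beside 64.8 to 85.5 units.

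In these 3 genes both low-intron labeled libraries lay below every total RNA library, and replicate 1 at 15 and 60 min lay above every one. The log2 differences over all libraries were 0.42 (adjusted p = 0.357), 0.08 (adjusted p = 0.868) and 0.28 (adjusted p = 0.609) for Mdm2, Mdm4 and Zmat3 (limma, Benjamini-Hochberg). Without the low-intron labeled libraries they were 0.95, 0.64 and 0.95. All 3 were then called (adjusted p = 0.00250, 0.0188 and 0.00594, limma, Benjamini-Hochberg), as were 10988 of 12249 genes. The libraries were left out for their low intronic share, which raises intronic differences over all genes, and their median was then 1.04.

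Ccng1 depended on the isoform read. Its summed intronic level was 831 ± 88.8 units in labeled and 760 ± 101 units in total RNA (SD, n = 6 each), a log2 difference of 0.13 (adjusted p = 0.573, limma, Benjamini-Hochberg). Of the introns of isoform Ccng1-002, 1729 bases are exon in Ccng1-001, and the sum therefore holds exonic signal. The introns of Ccng1-001, the leading transcript, had 198 and 155, 133 and 207, and 182 and 145 units in labeled RNA, and 40.5 and 36.7, 54.2 and 61.1, and 69.8 and 45.8 units in total RNA. The groups did not overlap, as in 16.7% of genes read by the introns of their leading transcript, of which 29.4% were called as higher. The log2 difference was 1.72 (adjusted p = 0.000676, limma, Benjamini-Hochberg), an alternative chosen after the values were seen. Phlda3, below the filter, had 5.40 to 10.6 units in labeled RNA. In total RNA it was missing in 3 libraries and had 1.21, 1.62 and 6.53 units in the others.

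**Figure D4:**
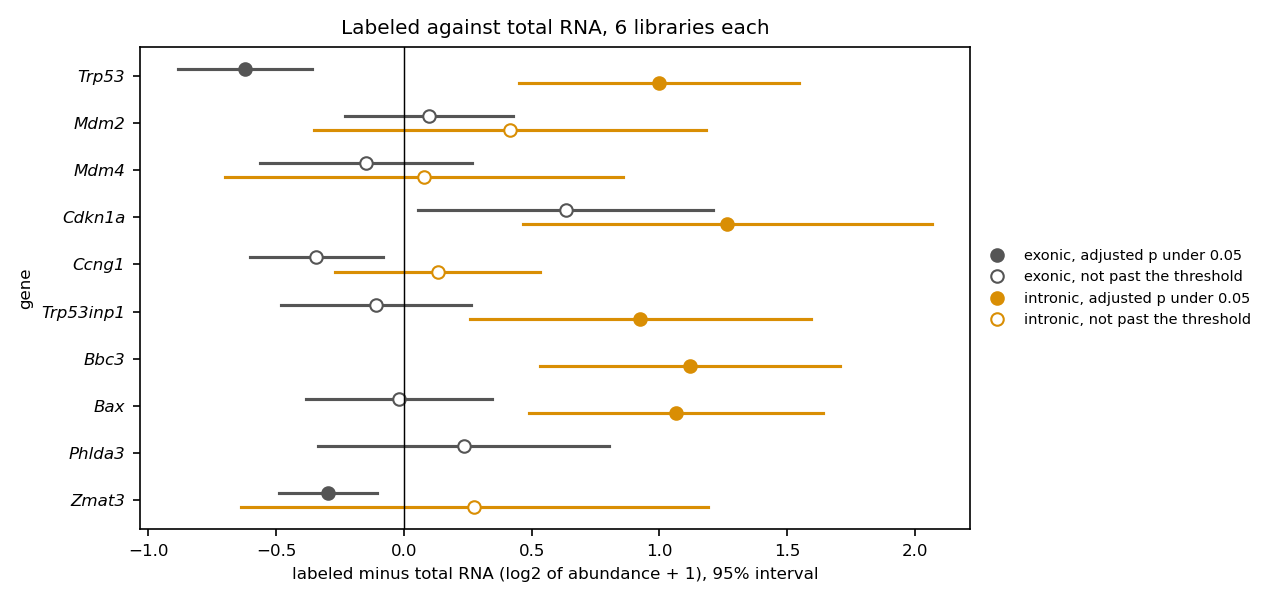
Log2 difference between labeled and total RNA (horizontal axis, positive where labeled RNA was higher) of the exonic (gray) and intronic (orange) level of each gene, with its 95% interval from limma over 6 libraries per fraction; filled circles mark an adjusted p under 0.05. Trp53 lay at -0.62 for exons and 1.00 for introns; Bbc3 has no exonic and Phlda3 no intronic point, being below the filters.

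The ratio of intronic to exonic level was compared within each gene and library. Introns of 27 of the 35 transcripts, from all 10 genes, hold bases that are exon in another isoform, in the leading transcript of Trp53 23.3% of the intronic bases, so the ratio does not measure unspliced RNA alone. On the summed levels the ratio was higher in labeled RNA for Trp53, Bax and Trp53inp1, and with the leading transcript for Ccng1 as well. Of 9431 genes tested with limma, 26.9% were called, 26.7% with a higher and 0.18% with a lower ratio in labeled RNA, with a median log2 difference of 0.69. Of 8 genes of the network that passed both filters, 3 were called as higher and 0 as lower, with Bax among them, which passed the intronic filter only through labeled RNA. Introns held 17.1 ± 6.08% of the summed level of Trp53 in labeled and 6.09 ± 1.52% in total RNA (SD, n = 6 each).

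The shares for Trp53 were 26.9% and 7.77% at 15 min, 17.3% and 17.2% at 30 min, and 15.9% and 17.7% at 60 min in labeled RNA, and 4.66% to 8.42% in total RNA. Only labeled 15 min replicate 2 lay within the range of total RNA. The log2 difference of the ratio was 1.62 (SE 0.35, adjusted p = 0.00778, limma, Benjamini-Hochberg), higher than in 96.5% of genes tested, and it was called in all 18 alternatives. For Trp53inp1 it was 1.03 (SE 0.29, adjusted p = 0.0208), and introns held 43.4 ± 8.01% of the summed level in labeled and 27.1 ± 2.29% in total RNA, higher without overlap as in 10.9% of genes tested. For Bax it was 1.09 (SE 0.33, adjusted p = 0.0300, limma, Benjamini-Hochberg). Introns of Ccng1 also held a higher share without overlap, 33.5 ± 1.98% of the summed level in labeled and 26.6 ± 0.914% in total RNA. Its ratio was not called on the summed levels.

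The calls of Bax and Trp53inp1 were lost on leaving out 1 library in 7 and 5 cases of 12, with adjusted p-values up to 0.0821 and 0.0607 (limma, Benjamini-Hochberg). For Bax these were both labeled 30 min libraries and every total RNA library except 60 min replicate 1, and for Trp53inp1 labeled 30 min replicate 2, labeled 60 min replicate 1, total 15 min replicate 2, total 30 min replicate 1 and total 60 min replicate 2. The call of Bax was also lost with a pseudocount of 20 (0.49, adjusted p = 0.117) and with no filter (adjusted p = 0.0603; limma, Benjamini-Hochberg). Cdkn1a, Mdm2, Zmat3, Ccng1 and Mdm4 did not pass the test, with log2 differences of 0.63, 0.32, 0.57, 0.47 and 0.23. With the leading transcript, whose introns hold no exon of another isoform in Ccng1, the ratio of Ccng1 was called at 2.16 (adjusted p = 0.00103), beside 1.70 (adjusted p = 0.00628) for Trp53 (limma, Benjamini-Hochberg). Without the low-intron labeled libraries, the log2 difference of the ratio was 1.51 for Cdkn1a, 1.29 for Zmat3, 0.92 for Mdm2, 0.53 for Ccng1 and 0.52 for Mdm4, beside a median of 1.09 over all genes. In this alternative all of these but Mdm4 (adjusted p = 0.0567, limma, Benjamini-Hochberg) were called, as were 7785 of 9431 genes.

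Median-of-ratios scaling sets the libraries to their median gene, and by its construction brought the median log2 intronic difference of all genes from 0.65 to 0.01. On that scale 1050 genes were called as higher and 863 as lower in introns, against 3816 and 30 before. Measured against the median gene in this way, Bbc3 alone of the network was called as higher (0.49, adjusted p = 0.0311, limma, Benjamini-Hochberg). Trp53 (0.34), Bax (0.45), Cdkn1a (0.61) and Trp53inp1 (0.26) were not called, and Mdm4 lay below the median gene (-0.58, adjusted p = 0.0241, limma, Benjamini-Hochberg). Exons and introns were scaled separately, which centered the ratio too and brought its median difference from 0.69 to -0.004. For the ratio, 608 genes were higher and 399 lower after scaling. Measured against the median gene, Trp53 was still called (0.91, adjusted p = 0.0331, limma, Benjamini-Hochberg). Bax (0.42, adjusted p = 0.206) and Trp53inp1 (0.32, adjusted p = 0.166) were not (limma, Benjamini-Hochberg). For exonic levels, 1198 genes were higher and 1864 lower, and Trp53 (-0.57) and Ccng1 (-0.29) were called as lower.

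Transcripts of the same gene were then compared one by one. Of 45537 transcripts tested with limma, 17.3% were called, 2403 as higher and 5485 as lower. Of the 35 transcripts, 28 passed the filter, of which 8 were lower and 0 higher in labeled RNA. Isoforms share reads, so these 8 are not independent of each other. Of the isoforms of Trp53, Trp53-001 (-0.70, adjusted p = 0.00167), Trp53-002, Trp53-201 and Trp53-203 were lower (limma, Benjamini-Hochberg). Trp53-003 and Trp53-004 had differences of -0.58 and -0.79 without passing the test. Zmat3-201 (-0.40, adjusted p = 0.0123) and Ccng1-001 (-0.44, adjusted p = 0.0155) were also lower (limma, Benjamini-Hochberg), and the replicate block raised these adjusted p-values to 0.0589 and 0.0621. The 3 tested transcripts of Cdkn1a lay together, between 0.62 and 0.66.

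Transcripts of Trp53inp1 were read one by one, since 2 of its 4 were called as lower. Trp53inp1-001, the protein-coding one, had 182 ± 31.7 units in labeled and 252 ± 32.8 units in total RNA (SD, n = 6 each), a log2 difference of -0.47 (adjusted p = 0.0418, limma, Benjamini-Hochberg). Trp53inp1-002, annotated as a processed transcript without a coding sequence, had a difference of -0.58 (adjusted p = 0.0183, limma, Benjamini-Hochberg). Under the replicate block these adjusted p-values were 0.108 and 0.0576. The call of Trp53inp1-001 was lost with no filter (0.0635) and without any 1 of 9 libraries (0.0588 to 0.0982), all but labeled 15 min replicate 2, labeled 60 min replicate 1 and total 15 min replicate 2. That of Trp53inp1-002 was lost without labeled 30 min replicate 1 (0.0504).

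Trp53inp1-003, another processed transcript, had 233 and 161, 244 and 358, and 423 and 133 units in labeled RNA, and 124 and 98.8, 182 and 208, and 91.4 and 178 units in total RNA. The groups overlapped, and the lowest labeled library was the low-intron one at 60 min, replicate 2. The log2 difference was 0.77 (SE 0.27) with an adjusted p of 0.0711 (limma, Benjamini-Hochberg). It was called in 3 of 17 alternatives, with median-of-ratios scaling (0.81, adjusted p = 0.0230), without labeled 60 min replicate 2 (0.96, adjusted p = 0.0193) and without both low-intron libraries (1.05, adjusted p = 0.0131; limma, Benjamini-Hochberg). Of the intronic bases of Trp53inp1-001, 1071 are exon in another isoform, so the calls that rest on leaving out libraries of low intronic share are not independent of that share. The difference between the isoforms was itself not tested. Trp53inp1-004 had 114 ± 40.4 units in labeled and 113 ± 21.3 units in total RNA.

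**Figure D5:**
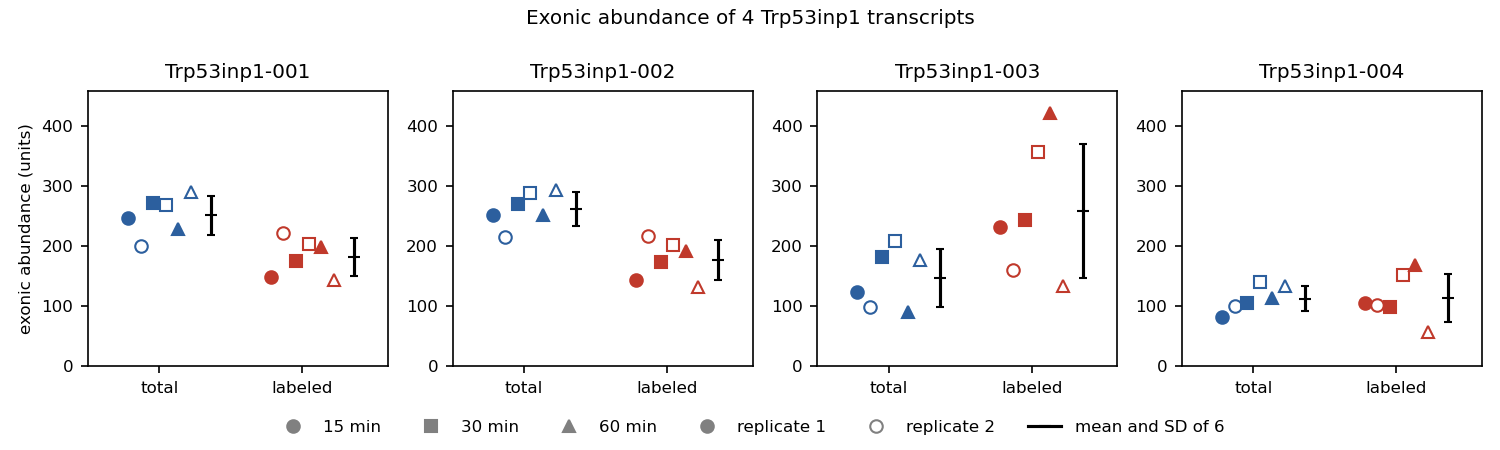
Exonic abundance (vertical axes, units, starting at 0) of 4 transcripts of Trp53inp1 in total (blue) and labeled (red) RNA, with symbols for labeling time and replicate and black bars for the mean and SD of 6 libraries. Trp53inp1-001 and Trp53inp1-002 lay lower in labeled RNA, and Trp53inp1-003 reached 423 units in labeled RNA against at most 208 units in total RNA.

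Labeling time was compared within each fraction as 60 against 15 min. No gene of the network passed the test in exons or introns of either fraction. With limma, 0 of 13977 genes were called in exons of labeled RNA (178 at an unadjusted p under 0.05) and 0 in total RNA (108 at an unadjusted p under 0.05). For introns 0 of 12249 genes were called in labeled (17 at an unadjusted p under 0.05) and in total RNA (64 at an unadjusted p under 0.05). The percentage called was 0.0 in each. With 2 libraries per group the intervals were wide.

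The exonic level of Trp53 in labeled RNA averaged 6322, 5798 and 5025 units at 15, 30 and 60 min, a log2 difference of -0.32 between 60 and 15 min with a 95% interval from -0.82 to 0.18. Mdm2 averaged 2719, 2576 and 2532 units, with a difference of -0.08 and an interval from -0.70 to 0.54. Cdkn1a averaged 1134, 1104 and 957 units, with a difference of -0.17 and an interval from -1.28 to 0.95. For Mdm2 and Cdkn1a the replicates at 15 and at 60 min lay farther apart than the means of these times, and for Trp53 those at 15 min did. In total RNA the differences of the 9 genes ran from -0.20 (Bax) to 0.25 (Trp53inp1). The difference of the change between labeled and total RNA was called for 0 of 13977 genes (162 at an unadjusted p under 0.05), and for Trp53 it was -0.30.

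Other p53 target genes were described from a list of 32. At exonic level 29 were tested, of which labeled RNA was higher for 4 and lower for 2, with a median log2 difference of 0.09, beside 5.28% higher and 11.6% lower over all genes. Higher were Btg2, an antiproliferative regulator of deadenylation (17.8 ± 2.22 units in total, 39.7 ± 7.36 units in labeled RNA, difference 1.11), and Pidd1, a scaffold of the PIDDosome (190 ± 11.0 and 390 ± 44.1 units, difference 1.03). Btg2 passed the filter only through labeled RNA, and with no filter its adjusted p was 0.00464 (limma, Benjamini-Hochberg). Gadd45a, a stress sensor of the growth arrest and DNA damage family, rose by 0.76, and Triap1, a mitochondrial inhibitor of apoptosis, by 0.69. Lower were Eda2r, a receptor for ectodysplasin A2 (-0.77), and Ei24, a protein of the endoplasmic reticulum (-0.59). Their adjusted p-values ran from 0.000358 (Pidd1) to 0.0469 (Eda2r; limma, Benjamini-Hochberg). The calls of Btg2, Pidd1 and Ei24 held in all 18 alternatives, while those of Eda2r, Gadd45a and Triap1 held in 7, 5 and 6 of 18, were lost on leaving out most single libraries, and had adjusted p-values up to 0.113, 0.0981 and 0.106.

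In introns 24 genes of that list were tested and 11 were higher, led by Gadd45a (2.08), Btg2 (1.78) and Triap1 (1.58), where 31.2% of all genes were higher. Of the 11, Btg2, Triap1 and Pmaip1, which encodes the BH3-only protein Noxa, had 5.92, 6.29 and 7.08 units in total RNA and passed the filter only through labeled RNA. With no filter the adjusted p-values of Btg2 and Triap1 were 0.00637 and 0.00327, and Pmaip1 (1.04) was no longer called, at 0.0566 (limma, Benjamini-Hochberg). The intronic level of Gadd45a ran from 57.9 to 280 units in labeled and from 19.5 to 69.0 units in total RNA. For the ratio, 7 of 24 were higher, beside 26.7% of all genes, and Pmaip1, 1 of the 7, was not called with no filter (adjusted p = 0.0621, limma, Benjamini-Hochberg). Without the low-intron labeled libraries 6 of the 29 were called in exons, when 3238 of 13977 genes were called.

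Regulators upstream of p53 were described from a list of 16. At exonic level 15 were tested, of which labeled RNA was lower for 4 and higher for 0, with a median of -0.21, beside 11.6% lower and 5.28% higher over all genes. They were the acetyltransferase Crebbp (-0.60), the deubiquitinase Usp7, which acts on Mdm2 and p53 (-0.53), the kinase Atr (-0.52) and the ubiquitin ligase Cop1 (-0.48). Usp7 had 4066 ± 760 units in labeled and 5786 ± 560 units in total RNA (SD, n = 6 each). The calls of Usp7 and Atr held in 12 and 6 of 18 alternatives, with adjusted p-values up to 0.0620 and 0.106 (limma, Benjamini-Hochberg). In introns 3 of 15 were higher, Rpl11 (1.54), Kat5 (1.43) and Rpl5 (1.23), and Rpl5 and Rpl11 are ribosomal proteins that bind Mdm2. Kat5 had 5.91 units in total and 17.7 units in labeled RNA and passed the filter only through labeled RNA, and with no filter its adjusted p was 0.00290 (limma, Benjamini-Hochberg). The share of all genes was 31.2%. For the ratio 5 of 15 were higher, beside 26.7% of all genes.

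Genes whose exonic levels varied most like those of Trp53 across the 12 libraries, among 13976 genes, were Prkacb (Pearson r = 0.984), Ctnnd1 (r = 0.977) and Gm17572 (r = 0.977). For Mdm2 they were Kif15 (r = 0.964), Gtf2h1 (r = 0.960) and Gm14435 (r = 0.954). These correlations are a description over libraries that share fractions, cultures and labeling times.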

How the data were processed

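Per the labels and methods, the authors used STAR 2.5.0 for alignment to exons and introns and RSEM for quantification, and the processing notes name mm10. The deposited values are a signal: length-normalized abundances of exons and introns with 1 common total per library. The study gives an average number of reads per library; their scaling, the removal of values of 1 or less and the depth of each single library are not given in the sources used here.

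Transcripts were assigned to genes with GENCODE M1, which held 75.1% of the Ensembl transcripts and was used for names and isoforms only. Transcripts absent from it entered no gene, so the isoforms and summed levels of a gene may be incomplete. Gene positions and promoters are from RefSeq on GRCm38. Values were summed per gene, missing values counted as 0, and log2(value + 1) was fitted with limma 3.58.1 in R 4.3.3 (mean-variance trend, except for the ratio) and adjusted by Benjamini-Hochberg over all features at 0.05. Filters were a mean of 20 for exons and 10 for introns. This scale understates differences of low genes. Labeled and total RNA were compared with labeling time as a covariate, and 60 and 15 min in a model of 6 groups.

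The labels number 2 biological replicates and describe them as a culture divided and passaged; they do not say that equal numbers pair labeled with total libraries. Labeled and total libraries with the same number deviated from their group means with correlations of -0.07, 0.05 and -0.19 across genes at 15, 30 and 60 min. Alternatives were a pseudocount of 20, no filter, median-of-ratios scaling, the replicate block, leaving out each library, the leading transcript and leaving out the low-intron labeled libraries. Between labeled and total RNA, the replicate block was a term for each labeling time and replicate number together. It thus paired labeled with total libraries, which the labels do not do, and was not an adjustment for culture alone. For 60 against 15 min it was a term for the replicate number. The scripts were tested on simulated data. Members, lists and tests were chosen with earlier results of these data known. Genes named are all 10 members, those of the other lists with the largest called differences (up to 5 each way in exons, 3 in introns), member transcripts called or leading, and the 3 genes most like Trp53 and Mdm2; Cop1, Kat5, Pmaip1, Rpl5, Rpl11 and Trp53inp1-003, Trp53inp1-004, Trp53-003, Trp53-004 and the Cdkn1a transcripts were added after their values were seen. Python 3.11.15 with numpy 2.4.6, pandas 2.3.3, scipy 1.17.1 and matplotlib 3.10.9 was used.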

Additional observations from a re-analysis of the deposited data

Results flagged for a closer look

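Libraries far from the other 5 of their fraction, by Dixon's test at 95%, were found in 5 of 60 groups of 6 values (summed levels and intronic percentages of the 10 genes). Chance would give about 1 in 20 groups, or 3, if the groups were independent and their libraries alike. Neither holds, since the percentages are computed from the levels and each group spans the labeling times. In total RNA of replicate 2 at 30 min, the intronic level of Mdm2 was 322 units against 226 to 245 units in the other total RNA libraries. In the same library the intronic level of Phlda3 was 6.53 units against 0 to 1.62 units, and its intronic percentage of the summed level was 14.5% against 0 to 4.46%. In labeled RNA of replicate 1 at 15 min, the intronic level of Bax was 33.9 units against 14.9 to 21.4 units in the other labeled libraries. The intronic percentage of Bax was 27.0% there, against 8.46% to 12.5%. That labeled library had the highest intronic share of all, 14.8%.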

How the results depend on the processing

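Trp53 kept its exonic call and its call for the ratio in all 18 alternatives, and Bbc3 kept its intronic call in all but the leading transcript, where it was below the filter. Median-of-ratios scaling centers the median gene, so the negative intronic values it gave for Mdm4 (-0.58) and Crebbp (-0.53), neither called before, are relative to that gene and follow from the centering. The depth of each library is unknown, so no limit of detection can be given; each library is 1 sample of 1 cell line, and the cause of the changes below was not tested.

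With the replicate block, 1270 genes were called in exons and 4470 transcripts, against 2353 and 7888. In introns and for the ratio it raised the counts to 4973 and 3278 genes, against 3846 and 2533. The block changed no call of the 10 genes but that of Zmat3 in exons, and those of 4 of their transcripts. With median-of-ratios scaling 1913 genes were called in introns and 1007 for the ratio, against 3846 and 2533 of 12249 and 9431 tested. The leading transcript gave 2489 and 1620 calls of 8370 and 6466 genes tested, so fewer genes entered. Without the low-intron labeled libraries these counts were 10988 and 7785, which follows in part from leaving them out by their introns, and 12699 transcripts were called.

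For 60 against 15 min, no gene was called in any of the 5 comparisons with the replicate block, and apart from single libraries left out the count of 0 changed only as follows. In labeled exons there were 6 with no filter and 30 without the low-intron libraries. In total exons there were 4 with a pseudocount of 20, 8 with no filter, 3 with scaling, 11 without the low-intron libraries and 3 with the leading transcript. In introns there were 2 in labeled RNA without the low-intron libraries, and in total RNA 1 with no filter and 3 without them. For the difference of the changes there were 4 with a pseudocount of 20, 8 with no filter and 32 without the low-intron libraries.

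Leaving out 1 library at a time gave 1436 to 2931 genes in exons, 2339 to 6694 in introns, 1054 to 5794 for the ratio and 4753 to 10439 transcripts. For 60 against 15 min it gave 0 to 8 and 0 to 1 genes in exons and introns of labeled RNA, 0 to 7 and 0 to 1 in total RNA, and 0 to 11 for the difference.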

Other observations

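Of the relatives of p53, Trp63 was missing in 9 of 12 libraries and had at most 1.95 units, while Trp73 was listed in all, with 6.93 to 12.6 units in its leading transcript. Its summed exonic level did not pass the test (log2 difference -0.27, adjusted p = 0.328), and its intronic level was higher in labeled RNA (1.13, SE 0.30, adjusted p = 0.0116; limma, Benjamini-Hochberg), as was its ratio of intronic to exonic level (1.40, adjusted p = 0.0137, limma, Benjamini-Hochberg).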
